A study of Caenorhabditis elegans with 3 samples.

Results

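The genes described here are the C-type lectin genes of Caenorhabditis elegans, taken as every gene whose name begins with clec- in either of 2 deposited expression tables. There were 65 such genes among 10168 genes listed in all, 54 of them in the dcr-1 table, 64 in the drsh-1 table and 53 in both. PolyA RNA was sequenced from young adults of a fem-1 strain fed RNAi, with 1 library labelled dcr-1 RNAi, 1 labelled drsh-1 RNAi and 1 labelled mock, all at 2.5 days. All 3 libraries thus came from the same strain, in which loss of fem-1, a sex determination gene, leaves hermaphrodites without their own sperm; the labels give no fem-1 allele. The strain was chosen as a sterile background for comparison with animals that lack dcr-1 function, per the labels. What the mock animals were fed is not stated in the labels.

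The study asked how knocking down dcr-1 changes RNA levels, with drsh-1 knockdown and mock as controls. dcr-1 encodes Dicer, which cuts double-stranded RNA and microRNA hairpins into small RNAs, and drsh-1 encodes Drosha, which frees those hairpins from primary transcripts in the nucleus. With 1 library per group nothing below has a replicate check, so neither p-values nor standard deviations are given. "Higher" and "lower" therefore describe these libraries. Levels are FPKM (fragments per kilobase of transcript, scaled to mapped fragments), which may be compared between genes because they are per length, and differences are log2 ratios of (FPKM + 1). A gene appears in a table only if it is above 2 FPKM in both libraries of that table. In whole animals, fewer cells of a type and less RNA per cell cannot be told apart.

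C-type lectins carry a protein fold, the C-type lectin-like domain, that in many family members binds sugars with the help of calcium. Most worm members are predicted to be secreted, the family is greatly expanded in nematodes, and many of its genes are expressed in the intestine and change during infection, where single members have been reported to act as defence effectors. Others are expressed in the germ line, epidermis or neurons. The present RefSeq annotation (assembly WBcel235) names 239 protein-coding clec genes, and 64 of the 65 genes matched one by name, the exception being clec-81. These 64 genes were 26.8% of the annotated family. Of all protein-coding genes, 35.98% were listed under their present symbol. Listed genes that match no present symbol are missing from that share, so it may be too low and is not compared with the family's.

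RNA of both targets remained detectable after RNAi, at lower levels than in mock. dcr-1 RNA stood at 23.8 FPKM in dcr-1 RNAi, against 36.8 FPKM in mock, and drsh-1 was at 20.9 FPKM in drsh-1 RNAi, against 31.999 FPKM in mock (log2 ratio -0.59). The mock value of drsh-1 is 26.2 FPKM in the other table, which would give -0.31. Markers were used to check the tissues of a feminized adult. All 9 oocyte and germ line markers and 9 of 10 intestinal markers were listed, the exception, by that name, being the peptide transporter gene pept-1, whereas 3 of 10 sperm markers (msp-81, msp-19 and spe-15, each under 9 FPKM) and 0 of 5 male markers were. Intestinal markers summed to 599.9 FPKM in dcr-1 RNAi, 390.0 FPKM in drsh-1 RNAi and 286 FPKM in mock over 9 genes, and germ line markers to 1822, 1889 and 1720 FPKM over 9 genes in the same libraries. The largest parts of the intestinal sum in dcr-1 RNAi were from mtl-2, a metallothionein gene, and act-5, a microvillus actin gene. mtl-2 was at 290.9 FPKM in dcr-1 RNAi, against 121.9 FPKM in mock, and act-5 at 145.7 FPKM, against 24.7 FPKM. Of the 9 genes, 6 were above mock in dcr-1 RNAi and 3 below. The intestinal list did not move as 1 block in dcr-1 RNAi: act-5 had a log2 ratio of 2.51 and the aspartyl protease gene asp-1 -1.79. By at least 2-fold, 2 of the 9 genes were higher than mock and 2 lower, beside 6.71% and 6.53% of all genes. Body wall muscle markers were all above mock in dcr-1 RNAi, 6 of 6 with a median log2 ratio of 0.91, beside 55.5% of all genes above mock. Of the 6, 3 were higher by at least 2-fold, beside 6.71% of all genes. For 1 of those 3, unc-15, the ratio is 1.42 with the mock value of its own table and 0.81 with that of the other. In drsh-1 RNAi the muscle median was 0.10. Of 7 hypodermal markers 3 were listed, with ratios in dcr-1 RNAi of 2.095 for the adult cuticle collagen gene col-19, 0.02 for elt-3 and -0.16 for lin-26, and in drsh-1 RNAi of 0.15 for col-19, -0.09 for elt-3 and -1.38 for lin-26. Of 6 neuronal markers 5 were listed, with a median of -0.11 for dcr-1 RNAi and -0.23 for drsh-1 RNAi, and of 3 coelomocyte markers only cup-4 was. The part of these tissues in the lectin values was not tested.

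A few genes carried most of the family's RNA. Over the 53 genes in both tables, FPKM summed to 5766 in dcr-1 RNAi, 6161 in drsh-1 RNAi and 6054 in mock, or 0.728%, 0.906% and 0.938% of the sum over the 9043 genes whose mock value is the same in both tables. clec-87 was the most abundant in every library, at 1937 FPKM in dcr-1 RNAi, 2393 FPKM in drsh-1 RNAi and 2040 FPKM in mock. It made up 33.6% of the family's sum in dcr-1 RNAi, 38.8% in drsh-1 RNAi and 33.7% in mock. The median gene of the family stood lower than the median of all genes, at 18.03 FPKM against 28.3 FPKM in dcr-1 RNAi, 17.7 against 27.9 FPKM in drsh-1 RNAi and 15.5 against 28.03 FPKM in mock.

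**Figure D1:**
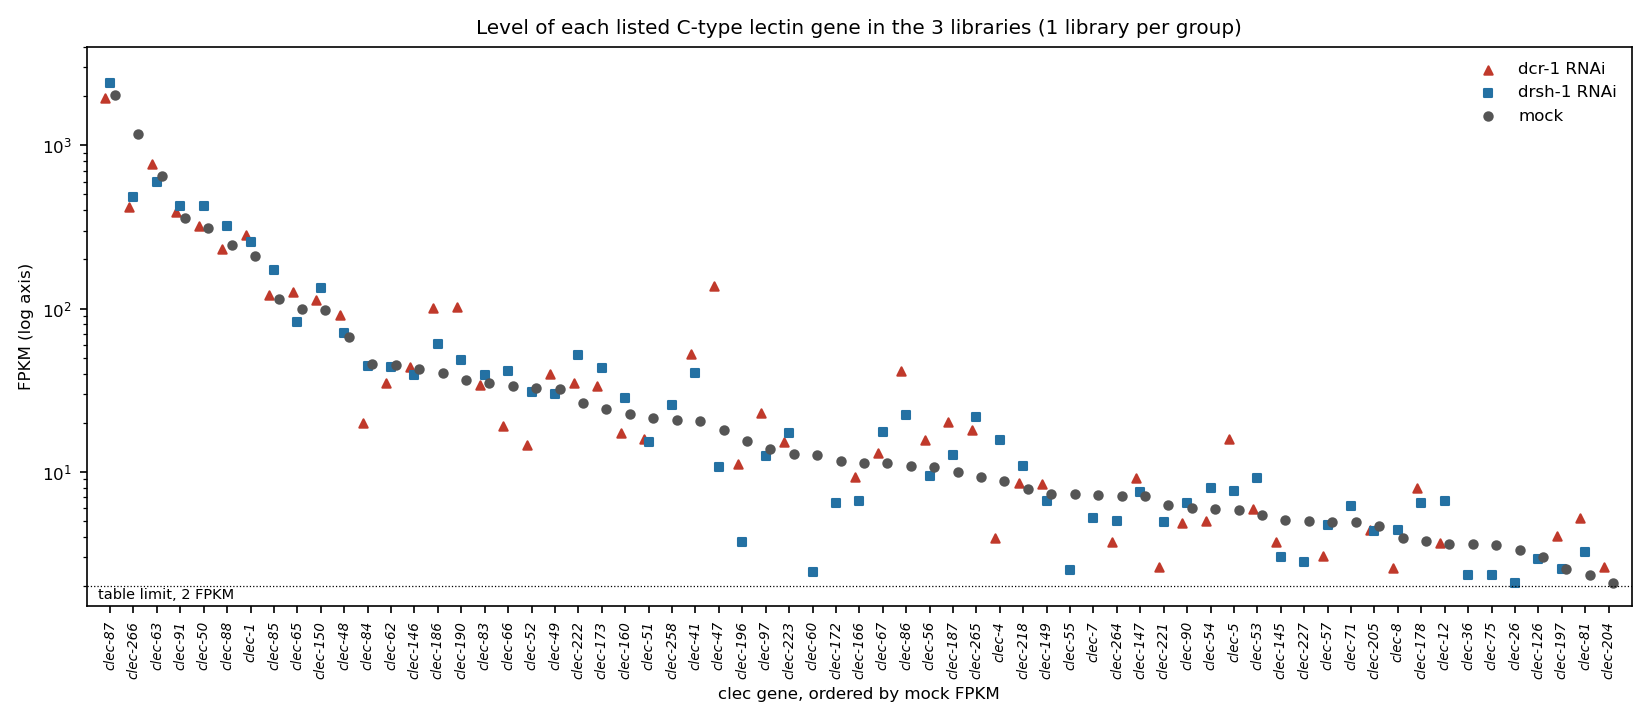
FPKM (log axis) of each of the 65 C-type lectin genes in dcr-1 RNAi, drsh-1 RNAi and mock, 1 point per library, ordered by the mock value; a missing point means that the gene was not listed for that library. clec-87 leads in all 3 libraries, clec-266 stands above its RNAi values in mock, and clec-47 stands out in dcr-1 RNAi at 138 FPKM.

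The 8 genes highest in mock stayed less than 2-fold from mock in either RNAi library, with 1 exception. clec-63 was at 764 FPKM in dcr-1 RNAi, 594 FPKM in drsh-1 RNAi and 650.3 FPKM in mock. clec-91 was at 388, 424 and 359 FPKM in the same libraries, and clec-50 at 319.9, 424 and 312 FPKM. For these 3 genes the values lie within 1.5-fold of mock. clec-88 (232, 318 and 244 FPKM), clec-1 (282, 257 and 209.8 FPKM) and clec-85 (121.5, 172 and 114 FPKM) also stayed within a log2 ratio of 0.59 of mock. The exception was clec-266, at 418 FPKM in dcr-1 RNAi, 483 FPKM in drsh-1 RNAi and 1179 FPKM in mock. It was the second most abundant gene of the family in mock and the third in either RNAi library. Without it the sum over the other 52 genes was 5347 FPKM in dcr-1 RNAi, 5678 FPKM in drsh-1 RNAi and 4875 FPKM in mock. The raw dcr-1 RNAi sum was thus below mock with clec-266 and above it without. The sum over the 9043 genes with equal mock values also differed, at 791603 FPKM in dcr-1 RNAi, 679995 FPKM in drsh-1 RNAi and 645247 FPKM in mock. The order of the raw family sums therefore does not give the order of the family's shares.

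In dcr-1 RNAi against mock, 6 of 54 C-type lectin genes were at least 2-fold higher, 4 were lower by as much and 44 lay between. Among all 9631 genes tabulated, 6.71% were higher and 6.53% lower by at least 2-fold, beside 11.11% and 7.41% of the lectin genes. The median log2 ratio was 0.11 for the lectin genes and 0.06 for all genes, and the interquartile ranges were 0.76 and 0.68. Members lay on both sides of mock, 33 above and 21 below, or 61.1% above, beside 55.5% of all genes.

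The largest difference of the family was that of clec-47, a short gene with a coding length of 480 bases. It was at 138 FPKM in dcr-1 RNAi, against 17.9 FPKM in mock, 7.33-fold higher (log2 ratio 2.87). In drsh-1 RNAi it was at 10.7 FPKM, on the other side of mock (-0.69). No other listed value of the family was as far from mock, but clec-258, not listed for dcr-1 RNAi, would be at -2.86 if it stood at the 2 FPKM limit of the table and farther if below it.

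clec-86 was at 41.6 FPKM in dcr-1 RNAi, against 10.9 FPKM in mock, 3.58-fold higher (log2 ratio 1.84). Exons of clec-86 overlap those of alh-10, an aldehyde dehydrogenase gene, in the present annotation, and alh-10 itself was at 12.6 FPKM in dcr-1 RNAi, against 6.53 FPKM in mock (0.85). No source used here says whether counting used strand, so reads of this pair may be shared. In all, 17 of the 64 matched genes overlap another gene's exons, among them clec-266, clec-87, clec-88, clec-91, clec-85, clec-221, clec-264, clec-55 and clec-172. Of the partners, only those of clec-86, clec-147, clec-221 and clec-264 were listed under their present names. For the rest the partner's level is unknown, and how far reads are shared was not tested. clec-190 was at 102 FPKM in dcr-1 RNAi, against 36.6 FPKM in mock (1.45). clec-41, reported to raise resistance to the pathogen Bacillus thuringiensis, was at 52.9 FPKM in dcr-1 RNAi, against 20.5 FPKM in mock (1.33). clec-5 was at 15.8 FPKM in dcr-1 RNAi, against 5.85 FPKM in mock (1.29), and clec-186 at 101 FPKM in dcr-1 RNAi, against 40.6 FPKM in mock (1.29). Just under 2-fold stood clec-187 (0.95), clec-178 (0.91), clec-81 (0.90) and clec-265 (0.89). Of these 4 genes, clec-178 and clec-81 were under 5 FPKM in mock.

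On the lower side, clec-266 was 2.81-fold lower in dcr-1 RNAi than in mock (log2 ratio -1.49). clec-84 was at 19.9 FPKM in dcr-1 RNAi, against 45.5 FPKM in mock (-1.16). clec-52, known as a gene induced by Staphylococcus aureus infection, was at 14.5 FPKM in dcr-1 RNAi, against 32.6 FPKM in mock (-1.11). clec-221 was at 2.61 FPKM in dcr-1 RNAi, against 6.30 FPKM in mock (-1.02), near the limit of the table. Just inside 2-fold, clec-4, also studied in Bacillus thuringiensis infection, was at 3.95 FPKM in dcr-1 RNAi, against 8.81 FPKM in mock (-0.99). clec-264 (-0.79) and clec-66 (-0.79) followed. These lower genes range from an abundant one to some close to 2 FPKM.

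**Figure D2:**
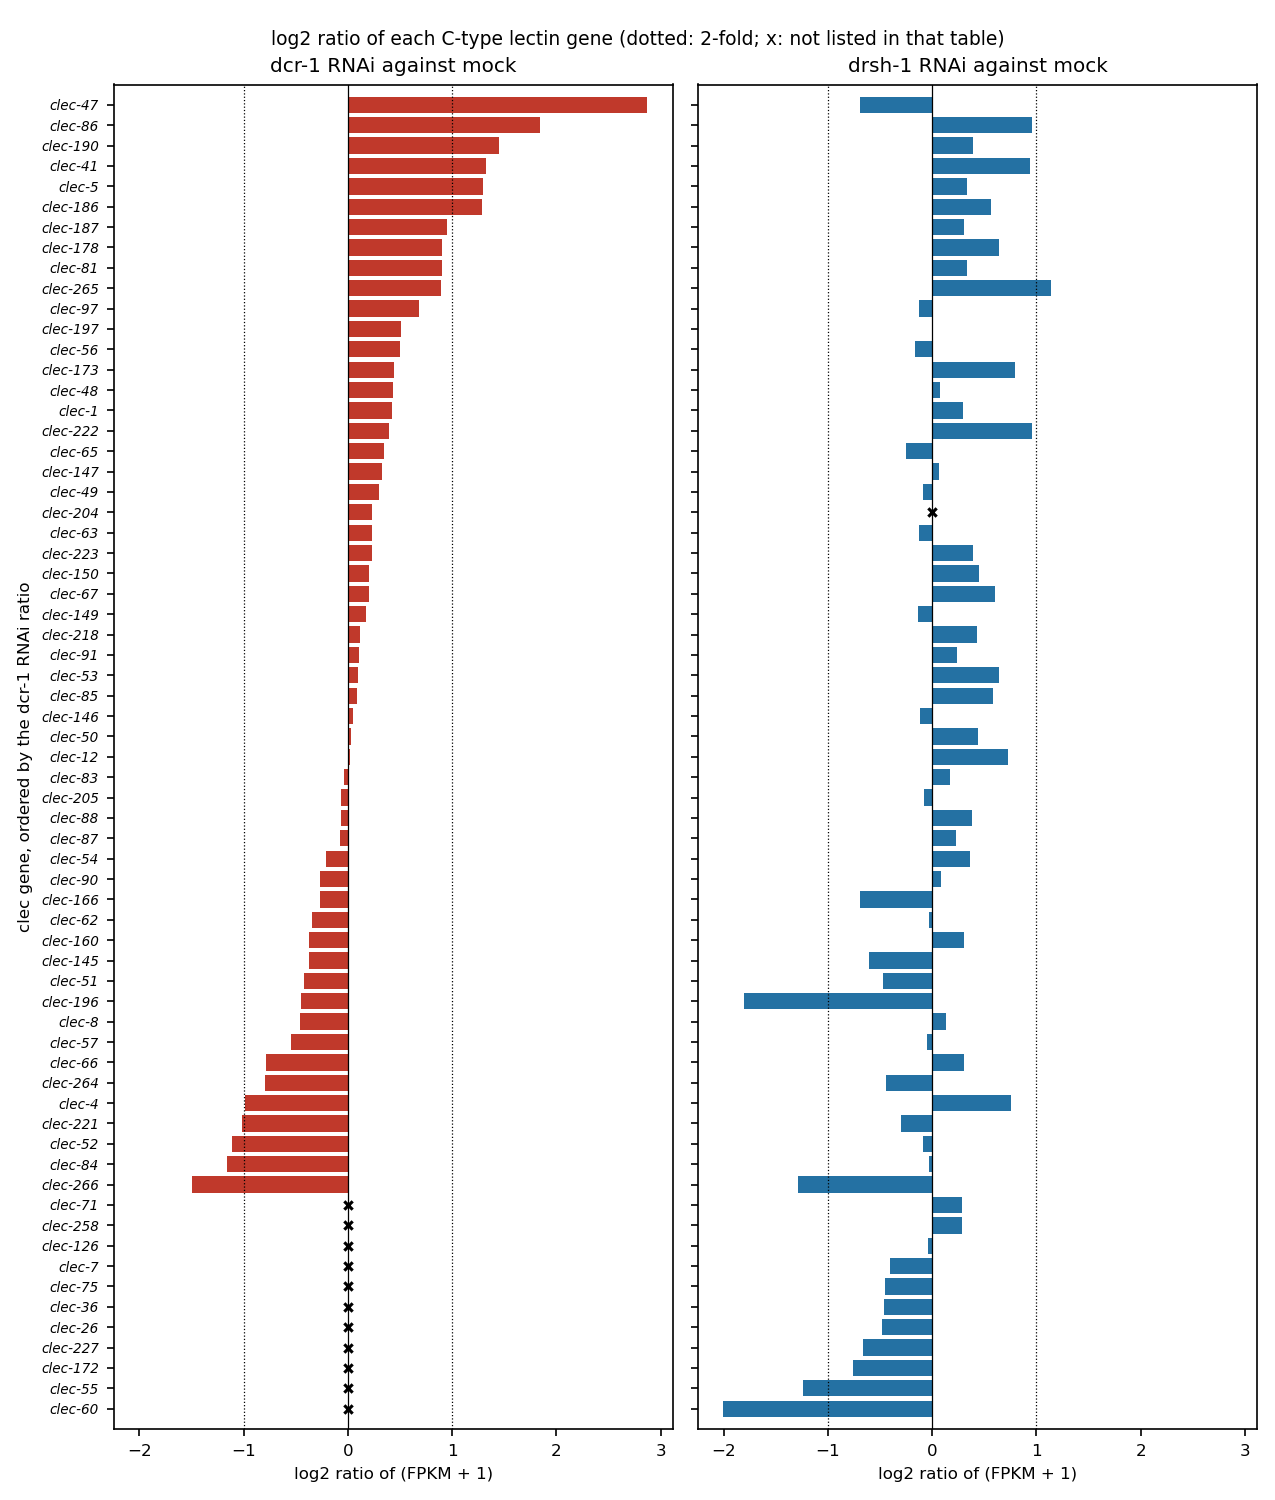
log2 ratio of (FPKM + 1) of each C-type lectin gene in dcr-1 RNAi (left) and drsh-1 RNAi (right) against mock, in 1 order for both panels, with dotted lines at 2-fold and a cross where the gene was not listed. In dcr-1 RNAi clec-47 lies farthest above mock (2.87) and clec-266 farthest below (-1.49), and in drsh-1 RNAi clec-60 lies farthest below (-2.003).

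The counts of lower and of higher genes in dcr-1 RNAi are limited by the table, which leaves out genes under 2 FPKM in either library. Of the lectin genes in the drsh-1 table, 11 of 64 (17.2%) were not listed for dcr-1 RNAi, against 537 of 9996 genes overall (5.37%), and 1, clec-204, was listed for dcr-1 RNAi only (2.61 FPKM in dcr-1 RNAi, 2.07 FPKM in mock). Among genes of at least 10 FPKM in mock the 2 shares were 3 of 37 (8.11%) and 55 of 7187 (0.765%), and under 10 FPKM they were 8 of 27 (29.6%) and 482 of 2809 (17.2%). The 3 genes of at least 10 FPKM were clec-258 (25.6 FPKM in drsh-1 RNAi, 20.8 FPKM in mock), clec-60 (2.43 FPKM in drsh-1 RNAi, 12.76 FPKM in mock) and clec-172 (6.46 FPKM in drsh-1 RNAi, 11.6 FPKM in mock). The other 8, clec-7, clec-26, clec-36, clec-55, clec-71, clec-75, clec-126 and clec-227, were between 3.01 and 7.29 FPKM in mock. A level below 2 FPKM in dcr-1 RNAi would remove a gene in this way; whether that is why these 11 are missing was not tested. If each stood at the 2 FPKM limit in dcr-1 RNAi, 5 of them would be at least 2-fold lower than mock, with log2 ratios of -2.86 for clec-258, -2.20 for clec-60, -2.07 for clec-172, -1.47 for clec-55 and -1.46 for clec-7, and the count of lower genes would be 9 of 65 (13.8%) in place of 4 of 54. The same step over all genes would make 804 of 10168 (7.91%) at least 2-fold lower. The step can only add lower genes, because every gene it adds is above 2 FPKM in mock. Genes under 2 FPKM in mock are missing too, so higher genes may also be uncounted. No lean to either side is drawn from it.

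In drsh-1 RNAi against mock, 1 of 64 C-type lectin genes was at least 2-fold higher, 4 were lower by as much and 59 lay between. Among all 9996 genes tabulated, 1.91% were higher and 1.59% lower by at least 2-fold, beside 1.56% and 6.25% of the lectin genes. The median log2 ratio was 0.08 for the lectin genes and 0.00 for all genes. The lectin median was 0.26 once those averaging under 5 FPKM were left out, and 0.23 over the 53 lectin genes with equal mock values in both tables, where 2 in place of 4 were lower by at least 2-fold. The lectin genes were more widely spread than all genes, with an interquartile range of 0.65 against 0.32. The wider spread held at both levels, at 0.78 against 0.49 among genes under 10 FPKM in mock and 0.52 against 0.27 among genes of at least 10 FPKM.

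clec-60, known for its strong induction by Staphylococcus aureus, was at 2.43 FPKM in drsh-1 RNAi, against 12.76 FPKM in mock, 4.01-fold lower (log2 ratio -2.003). clec-196 was at 3.73 FPKM in drsh-1 RNAi, against 15.5 FPKM in mock, 3.49-fold lower (-1.80), and at 11.11 FPKM in dcr-1 RNAi (-0.45). It has the shortest coding length of the listed family, 459 bases, and 3 annotated transcripts. clec-266 was 2.44-fold lower in drsh-1 RNAi than in mock (-1.29). clec-55 was at 2.51 FPKM in drsh-1 RNAi, against 7.29 FPKM in mock (-1.24). clec-172 was next, at 6.46 FPKM in drsh-1 RNAi, against 11.6 FPKM in mock (-0.76). Of the 4 genes past 2-fold, those other than clec-266 were under 4 FPKM in drsh-1 RNAi, where the pseudocount understates the ratio.

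The gene above 2-fold was clec-265, at 21.6 FPKM in drsh-1 RNAi, against 9.24 FPKM in mock (log2 ratio 1.14). The next highest were clec-86, at 22.2 FPKM in drsh-1 RNAi, against 10.9 FPKM in mock (0.96), clec-222, at 52.2 FPKM in drsh-1 RNAi, against 26.5 FPKM in mock (0.95), and clec-41, at 40.2 FPKM in drsh-1 RNAi, against 20.5 FPKM in mock (0.94). clec-173 followed at 43.1 FPKM in drsh-1 RNAi, against 24.4 FPKM in mock (0.80). In dcr-1 RNAi these 5 genes had log2 ratios of 0.89 for clec-265, 1.84 for clec-86, 0.40 for clec-222, 1.33 for clec-41 and 0.44 for clec-173. Both comparisons use the same mock library.

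The other genes listed in both tables lay closer together. Outside the 8 highest in mock, 32 genes were less than 2-fold apart in each comparison, among them clec-48, clec-53, clec-90, clec-97, clec-145, clec-146, clec-147, clec-149, clec-150, clec-160, clec-166, clec-197, clec-205 and clec-218. Their levels ran from 2.58 to 126 FPKM in dcr-1 RNAi, from 2.53 to 134 FPKM in drsh-1 RNAi and from 2.34 to 98.9 FPKM in mock. Their log2 ratios ran from -0.79 to 0.95 in dcr-1 RNAi against mock and from -0.69 to 0.95 in drsh-1 RNAi against mock. Within 1.5-fold of mock stood 36 of the 54 lectin genes in dcr-1 RNAi, with 11 higher and 7 lower, beside 16% and 13.9% of all genes. In drsh-1 RNAi 44 of the 64 did, with 11 higher and 9 lower, beside 5.45% and 5.19% of all genes.

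The RNAi libraries were then set directly against each other over the genes with equal mock values, of which 53 were lectin genes. In dcr-1 RNAi 3 of them were higher than in drsh-1 RNAi by at least 2-fold and 4 lower, or 5.66% and 7.55%, beside 4.29% and 5.78% of the 9043 genes compared. clec-47 was at 138 FPKM in dcr-1 RNAi, against 10.7 FPKM in drsh-1 RNAi (log2 ratio 3.56), clec-196 at 11.11 FPKM in dcr-1 RNAi, against 3.73 FPKM in drsh-1 RNAi (1.36), and clec-190 at 102 FPKM in dcr-1 RNAi, against 48.3 FPKM in drsh-1 RNAi (1.06). clec-4 was at 3.95 FPKM in dcr-1 RNAi, against 15.6 FPKM in drsh-1 RNAi (-1.74), with mock between them at 8.81 FPKM. clec-84 was at 19.9 FPKM in dcr-1 RNAi, against 44.4 FPKM in drsh-1 RNAi (-1.12), clec-66 at 19.1 FPKM in dcr-1 RNAi, against 41.7 FPKM in drsh-1 RNAi (-1.09), and clec-52 at 14.5 FPKM in dcr-1 RNAi, against 30.7 FPKM in drsh-1 RNAi (-1.03). For clec-84 and clec-52 the drsh-1 RNAi value was close to mock, with log2 ratios of -0.03 and -0.08. clec-5 (0.96) and clec-86 (0.88) were the next on the higher side and clec-221 (-0.72) on the lower. clec-266, lower than mock in each RNAi library, differed little between them (-0.21). By at least 1.5-fold, 10 lectin genes were higher in dcr-1 RNAi than in drsh-1 RNAi and 8 lower, beside 13.4% and 12.7% of all genes compared. The median was -0.16 for the lectin genes and 0.06 for all genes.

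**Figure D3:**
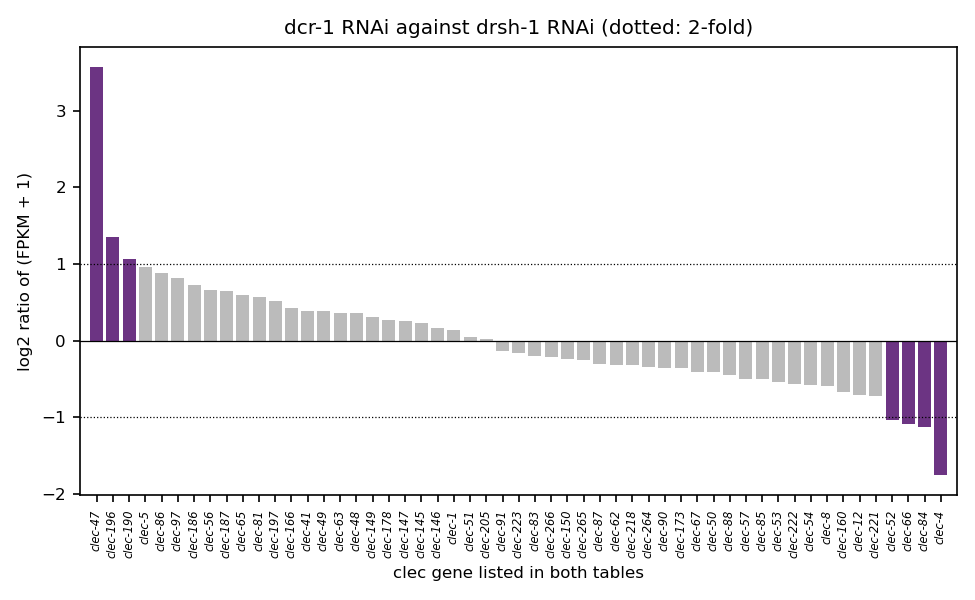
log2 ratio of (FPKM + 1) in dcr-1 RNAi against drsh-1 RNAi for the 53 C-type lectin genes listed in both tables, with coloured bars for those at least 2-fold apart. clec-47 stands alone at 3.56, and clec-4 lies farthest below at -1.74.

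Members tied to infection by earlier work were on both sides of mock. In addition to clec-41, clec-4, clec-52 and clec-60, clec-67 and clec-85 are known targets of the p38 kinase PMK-1. clec-67 was at 13.1 FPKM in dcr-1 RNAi, 17.7 FPKM in drsh-1 RNAi and 11.3 FPKM in mock, with log2 ratios of 0.20 and 0.60 for the RNAi libraries. clec-85 had ratios of 0.09 for dcr-1 RNAi and 0.59 for drsh-1 RNAi. clec-49, reported to act in defence against Serratia marcescens, was at 39.6 FPKM in dcr-1 RNAi, 30.03 FPKM in drsh-1 RNAi and 32.05 FPKM in mock. clec-71, also induced by Staphylococcus aureus, was at 6.20 FPKM in drsh-1 RNAi, against 4.90 FPKM in mock. These 8 genes were picked from general knowledge with their values in view, and nothing is drawn from how many lie on either side.

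Many C-type lectin genes sit beside each other in the genome. In the gene order of the RefSeq annotation, 30 of the 64 matched genes fell into 12 groups in which each was within 3 protein-coding genes of the next. Levels differed widely within some groups. In the group clec-62, clec-63, clec-65 and clec-66, clec-63 was at 764 FPKM in dcr-1 RNAi, 594 FPKM in drsh-1 RNAi and 650.3 FPKM in mock, whereas clec-62 was at 35.1, 43.9 and 44.8 FPKM in the same libraries. The log2 ratios of this group in dcr-1 RNAi ran between -0.79 (clec-66) and 0.35 (clec-65). In the group clec-83, clec-84 and clec-85, clec-84 was -1.16, while clec-83 was -0.04 and clec-85 0.09. clec-52 (-1.11) lies near clec-51 (-0.42), and clec-4 (-0.99) beside clec-8 (-0.46).

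The adjacent pair clec-186 and clec-187 had close ratios, 1.29 and 0.95 for dcr-1 RNAi, then 0.57 and 0.30 for drsh-1 RNAi, at levels of 101 and 20.3 FPKM in dcr-1 RNAi, against 40.6 and 10.02 FPKM in mock. The adjacent pair clec-222 and clec-223 had 0.40 and 0.23 for dcr-1 RNAi, then 0.95 and 0.39 for drsh-1 RNAi. In the group of clec-57, clec-227, clec-56, clec-54 and clec-55, 3 genes were listed for dcr-1 RNAi, with ratios between -0.54 (clec-57) and 0.50 (clec-56). Neighbours of similar sequence can share reads, which the FPKM values cannot show.

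**Figure D4:**
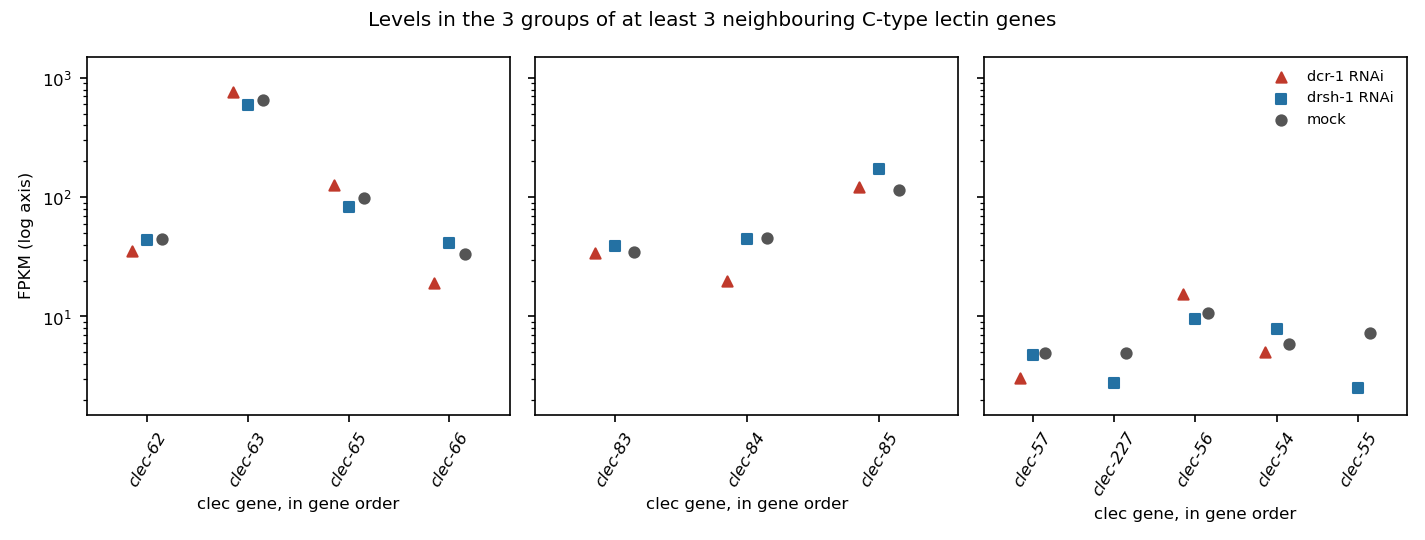
FPKM (log axis, the same in each panel) in dcr-1 RNAi, drsh-1 RNAi and mock for the 3 groups of at least 3 neighbouring C-type lectin genes, in gene order. Levels differ widely within the groups of clec-63 and clec-85, and clec-84 and clec-66 lie lower in dcr-1 RNAi than in the other libraries.

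Other infection response effectors (lysozymes, saposin-like proteins, antimicrobial peptides, thaumatins and named infection response genes) were set beside the lectins. The list also took every gene whose name begins with dod-, a name that does not itself mark a part in infection. In dcr-1 RNAi 23 of 68 were higher than mock by at least 2-fold and 11 lower, with a median log2 ratio of 0.34, and in drsh-1 RNAi 8 of 67 were higher and 2 lower, with a median of 0.08. Among all genes 6.71% were higher and 6.53% lower in dcr-1 RNAi, and 1.91% higher and 1.59% lower in drsh-1 RNAi. In dcr-1 RNAi the highest were ZK6.11 (3.73), the antimicrobial peptide gene nlp-24 (2.78) and F08G5.6 (2.499), and the lowest were the saposin-like protein genes spp-2 (-3.12) and spp-8 (-2.70) and F53A9.8 (-2.98). In drsh-1 RNAi the highest were ZK6.11 (2.30), dod-19 (1.67) and T24B8.5 (1.38), a PMK-1 target, and the lowest were spp-8 (-1.48), F53A9.8 (-1.24) and spp-18 (-0.92). This list was chosen with earlier results of these libraries known.

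Innate immune signalling factors were listed for dcr-1 RNAi in 25 cases, of which 5 have unequal mock values in the 2 tables. Of the 20 with equal mock values, 15 were below mock in dcr-1 RNAi and 5 above, with a median log2 ratio of -0.46, while 44.7% of all genes with equal mock values were below. By at least 2-fold, 4 of the 20 were lower and 0 higher, beside 600 and 599 of the 9043 genes with equal mock values. In the p38 kinase cascade, the upstream adaptor gene tir-1 was at 16.5 FPKM in dcr-1 RNAi, against 35.2 FPKM in mock (-1.04), and the kinase kinase kinase gene nsy-1 at 6.36 FPKM in dcr-1 RNAi, against 16.1 FPKM in mock (-1.22). The kinase gene pmk-1 was at 10.9 FPKM in dcr-1 RNAi, against 23.2 FPKM in mock (-1.02), and atf-7, which encodes a transcription factor it acts on, at 121 FPKM in dcr-1 RNAi, against 169 FPKM in mock (-0.49). pqm-1, a zinc finger transcription factor gene, was also at least 2-fold lower (-1.17). The highest with equal mock values were the Smad gene sma-3 (0.63) and the heat shock factor gene hsf-1 (0.60). The nuclear receptor gene nhr-49 has no settled direction, with a ratio of 1.03 against the mock value of its own table (8.44 FPKM) and -0.86 against that of the other (34.1 FPKM). For the hypoxia pathway gene egl-9 the same ratios are 0.03 and -1.07. With the mock values of the dcr-1 table throughout, the 25 genes had a median of -0.28, 18 below mock and 7 above. In drsh-1 RNAi 28 were listed, with a median of -0.04, 0 higher by 2-fold and 1, tir-1, lower by as much (17.01 FPKM in drsh-1 RNAi, against 35.2 FPKM in mock, -1.01). nsy-1 and pmk-1 had -0.53 and -0.20 there.

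Lectins of other folds were also on both sides. Of 15 listed (galectins, chitinase-related genes and lectins of the secretory pathway), 3 were higher in dcr-1 RNAi than in mock by at least 2-fold and 2 lower, with a median of 0.28, beside 6.71% and 6.53% of all genes. In drsh-1 RNAi 0 of the 15 were 2-fold apart in either direction, with a median of 0.22, beside 1.91% of all genes higher and 1.59% lower. The highest in dcr-1 RNAi were the galectin genes lec-9 (1.46) and lec-10 (1.28) and the cargo receptor gene ile-1 (1.10), and the lowest the galectin gene lec-2 (-1.49), the chitinase gene cht-1 (-1.01) and the galectin gene lec-1 (-0.28).

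**Figure D5:**
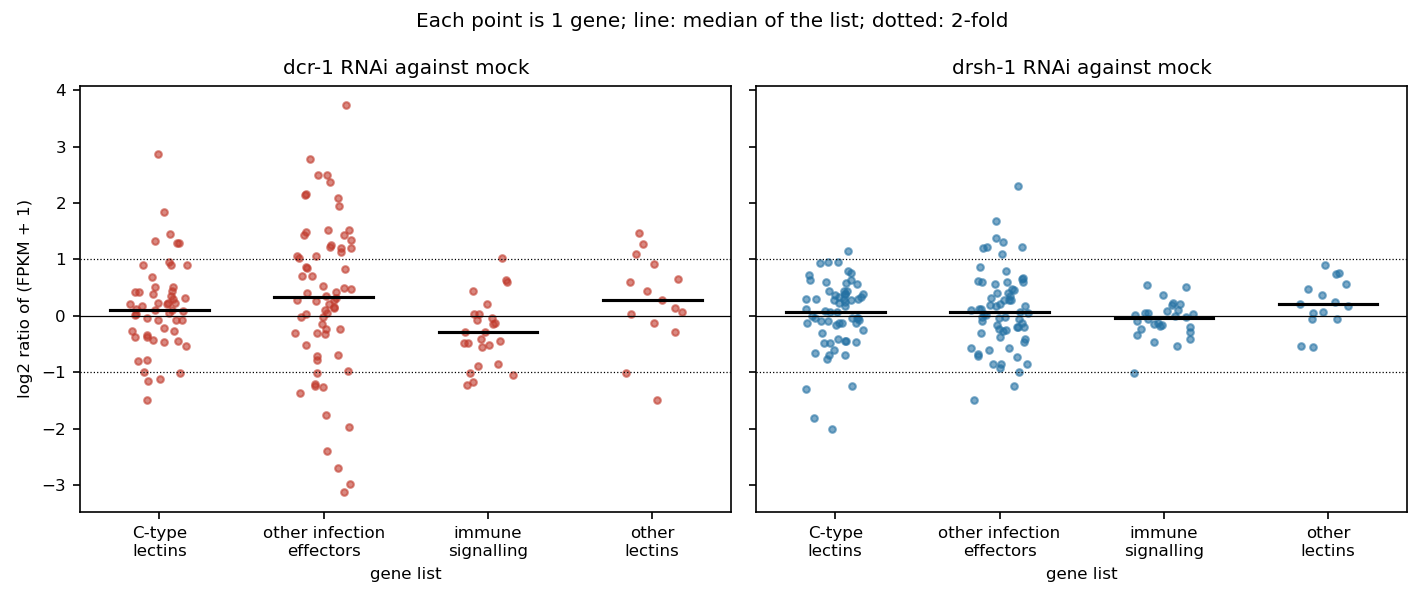
log2 ratio of (FPKM + 1) in dcr-1 RNAi (left) and drsh-1 RNAi (right) against mock for each listed C-type lectin gene, other infection response effector, innate immune signalling factor and other lectin gene, with the median of each list as a line. In dcr-1 RNAi the effectors span the widest range, from -3.12 to 3.73, and the 25 signalling factors, 5 of them with unequal mock values, have a median of -0.28.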

How the data were processed

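The authors deposited 2 tables without headers, each with a gene name, an FPKM value for mock, an FPKM value for 1 RNAi library and their log2 ratio. That deposited ratio was made after adding 1 FPKM to each value, since recomputing it so gives the same number to within 5.0e-12. The RNAi library was taken from each table's name, and mock as the column that both tables share. The submitters' processing notes name Cuffdiff 2.1.1 and Cufflinks, TopHat2 2.06, SAMtools and CASAVA 1.8.2, and say nothing of their roles. Build, annotation and scaling between libraries: not given in the sources used here. Hence no coordinates are printed, and no sequences were used here. Read counts were not analysed here and depth is unknown. log2 ratios were recomputed with a pseudocount of 1 FPKM in Python 3.11.15 (pandas 2.3.3). RefSeq gene order and Ensembl coding lengths are those of WBcel235. Of 9459 shared genes, 9043 had equal mock values (within 1e-09), and the RNAi libraries were compared over these.

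The genes, lists and thresholds were chosen with earlier results of these data known. Genes are named by rule if at least 2-fold apart, among the 5 highest or lowest of a comparison, among the 8 highest in mock, listed in 1 table only, or neighbours of such a gene. clec-178, clec-81 and clec-264 were added for their distance from 2-fold. Some of the genes less than 2-fold apart are also named, by name alone, to account for them. From the other lists the 3 highest and 3 lowest with a mean of at least 5 FPKM are named, and pmk-1, atf-7 and egl-9 were added after their values were seen. Limiting the signalling factors to genes with equal mock values was also chosen after seeing the data.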

Additional observations from a re-analysis of the deposited data

How the results depend on the processing

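No paired analysis was possible because each group had 1 library, and no library could be left out. The medians and counts of the 3 comparisons were recomputed with pseudocounts of 0.1 and 5 FPKM, a mean of at least 5 FPKM, median centring, a common upper quartile, equal mock values and a 1.5-fold threshold. Of 171 single gene ratios, 5 near zero changed sign under either scaling, 2 crossed 2-fold under either scaling, and 6 and 9 crossed it with pseudocounts of 0.1 and 5 FPKM. A pseudocount cannot change the sign of a ratio. Median centring and the common upper quartile moved ratios by up to 0.06 and 0.07. The signs of ratios past 2-fold were therefore not put to a test. In dcr-1 RNAi against mock, 9 genes were at least 2-fold higher and 5 lower with a pseudocount of 0.1 FPKM. With 5 FPKM these counts were 5 higher and 2 lower. At 1.5-fold, 11 higher and 7 lower genes of 54 passed, beside 16% and 13.9% of all genes. The count of genes at least 2-fold lower was 9 with unlisted genes set to 2 FPKM in dcr-1 RNAi. That alternative can only add lower genes and was chosen after seeing the data. In drsh-1 RNAi against mock, 2 genes were at least 2-fold higher with a pseudocount of 0.1 FPKM, 0 with 5 FPKM and, in an alternative also chosen after seeing the data, 0 among genes of at least 10 FPKM in mock, and 11 higher and 9 lower genes of 64 passed 1.5-fold, beside 5.45% and 5.19% of all genes. The median in drsh-1 RNAi was 0.26 among genes of at least 5 FPKM and 0.23 among genes with equal mock values, where 2 genes were at least 2-fold lower; fewer genes enter both. In dcr-1 RNAi against drsh-1 RNAi, 1 gene was at least 2-fold lower with a pseudocount of 5 FPKM, and 10 higher and 8 lower genes of 53 passed 1.5-fold, beside 13.4% and 12.7% of all genes. With 1 library per group and unknown depth, genes near 2 FPKM are the least certain.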

Other observations

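In the Ensembl annotation of WBcel235, 53 of the 64 matched C-type lectin genes have a single transcript and 11 have several. The longest coding length of each gene ran from 459 bases (clec-196) to 3102 bases (clec-223), with a median of 964.5 bases. Exons of 17 of the 64 genes overlap those of another protein-coding gene on either strand, among them clec-266 with the potassium channel gene kqt-1, clec-87 with iars-2 and clec-221 with F17C11.4. Neither kqt-1 nor iars-2 was listed by that name, so their levels are unknown. F17C11.4 was at 43.5 FPKM in dcr-1 RNAi, 34.2 FPKM in drsh-1 RNAi and 38.4 FPKM in mock, against 2.61, 4.94 and 6.30 FPKM for clec-221 in the same libraries. Values of overlapping genes are less certain where strand was not used in counting.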
